A study of Bos taurus with 15 samples.

Results

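Cultured bovine granulosa cells (GC) treated with 30 mM sodium L-lactate were set against untreated GC, and the full difference in gene expression was read from the microarray values of 5 L-lactate and 5 untreated cultures, which are 10 of the 15 arrays of the series. The members were taken by their labels alone. The L-lactate cells were kept for 8 days with sodium L-lactate in the medium. A further 5 cultures with 30 mM NaCl, the vehicle control, are given beside them, because sodium L-lactate also brings sodium into the medium. The untreated cells received neither addition. All 3 groups shared the rest of the culture. The GC were aspirated from small to medium-sized bovine follicles, pooled from many ovaries, cryopreserved, thawed and plated in serum-free medium with FSH, R3 IGF-1, androstenedione, insulin, transferrin and selenite on collagen-coated wells. Such cells are thus a model of FSH-stimulated GC cultured without serum and apart from the other cells of the follicle, and each culture came from an abattoir pool rather than from a known animal.

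GC line the ovarian follicle. Under FSH they convert androgens from the theca into estradiol through aromatase, and the preovulatory LH surge then shuts aromatase down while it switches on EGF-like growth factors, hyaluronan synthesis and matrix-linking proteins. Lactate is made by glycolysis, is carried over cell membranes together with a proton by monocarboxylate transporters and is turned into pyruvate by lactate dehydrogenase. It is present in follicular fluid. The comparison asks which transcripts of FSH-stimulated GC differ when lactate is present in the medium.

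Each value is a log2 signal per transcript cluster, which pools the probes of 1 locus, so that a difference of 1 stands for a 2-fold change. A cluster was called when limma's adjusted p was under 0.05 and the fold change above 1.5. The medians of the arrays lay between 4.52 and 4.60. The marker list of GC served to check the labelled cell type. Of its 14 genes, 11 had mean signals above 7 in both groups, among them CYP19A1 (aromatase), FSHR (the FSH receptor), FOXL2, INHA and INHBA (inhibin and activin subunits). The other 3 had less signal, with AMHR2 at 6.20 ± 0.052 in L-lactate cells and 6.55 ± 0.068 in untreated cells, AMH at 5.40 ± 0.20 in L-lactate cells and 5.76 ± 0.059 in untreated cells and HSD17B1 at 3.79 ± 0.084 in L-lactate cells and 4.09 ± 0.095 in untreated cells (SD, n = 5 each). The list averaged between 8.18 and 8.26 on the L-lactate arrays, between 8.47 and 8.58 on the NaCl arrays and between 8.36 and 8.44 on the untreated arrays. RNA from whole wells was measured, so fewer cells of a type and less RNA per cell cannot be told apart. Nothing in the sources says that the replicates came from separate cell pools, and the p-values then measure only the spread between these cultures.

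In L-lactate cells TXNIP and ARRDC4, inhibitors of glucose uptake, and the EGF-like ligand EREG were among the genes with the largest increases, while the stress response gene group led by SLC1A5 and DDIT3, several collagens and aromatase (CYP19A1) were lower. In all, 875 of 26773 clusters (3.27%) were called. Relative to untreated cells, the L-lactate cells had more signal in 518 of them (1.93%) and less in 357 (1.33%). In 842 of the 875, the 5 L-lactate arrays and the 5 untreated arrays did not overlap, while this held for 22.4% of all clusters. An adjusted p under 0.05 without a fold threshold was reached by 27.1% of the clusters, 3574 higher and 3680 lower. Most differences were small. The median size among the called clusters was 0.75 on the log2 scale, 201 were changed more than 2-fold (117 higher, 84 lower), 40 more than 3-fold (23 and 17), 16 more than 4-fold (10 and 6) and only TXNIP more than 8-fold. The median of all clusters was -0.015, with quartiles of -0.11 and 0.09. For comparison, 1.15% of the clusters were called in NaCl against untreated cells, a comparison that shares the untreated arrays, and 1.89% in L-lactate against NaCl cells. The shares of called members given for gene lists below stand beside the 3.27% of all clusters.

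**Figure D1:**
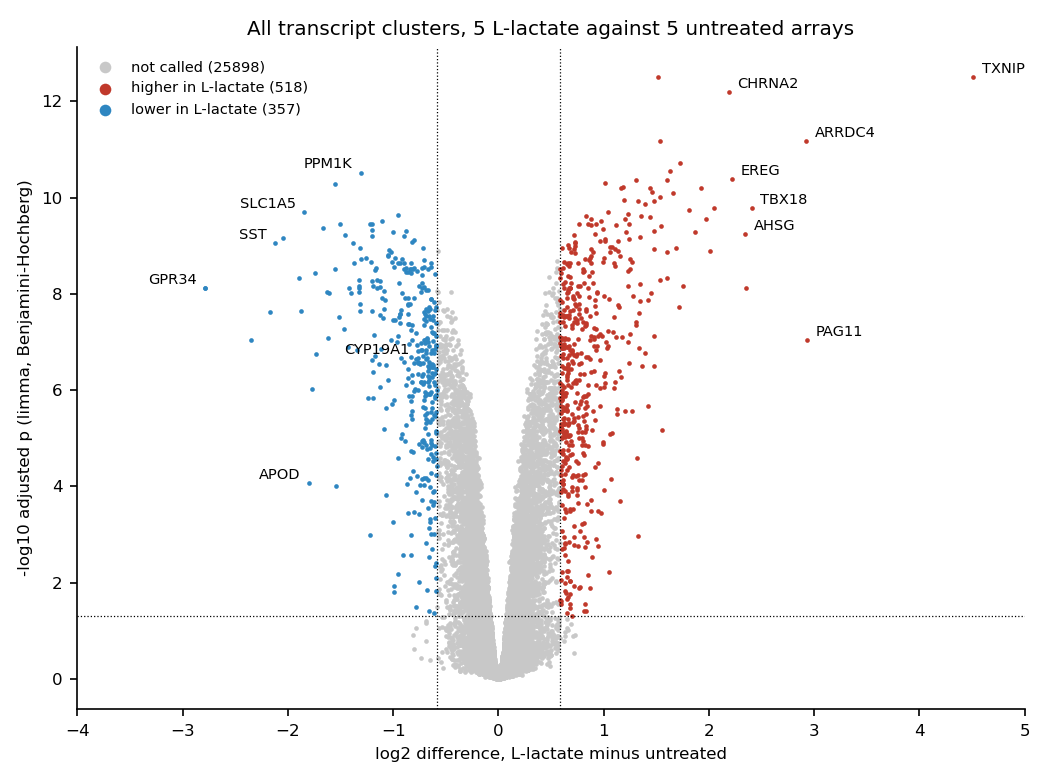
Each point is a transcript cluster, with the log2 difference of L-lactate minus untreated cells on the x axis and -log10 of limma's adjusted p on the y axis, and dotted lines at a fold change of 1.5 and an adjusted p of 0.05. The 518 called higher are red and the 357 called lower are blue, and TXNIP stands alone at a difference of 4.51.

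Along the first principal component of the 10 arrays, which held 45.6% of their variance, the L-lactate arrays scored between 17.7 and 25.3 and the untreated arrays between -23.2 and -17.8. The second held 9.13%. When the NaCl arrays, which had no part in it, were placed on the same axis, they fell between -5.67 and -2.61, closer to the untreated than to the L-lactate arrays. L-lactate replicate 5 lay farthest out, and without it 472 clusters were higher and 360 lower. Without untreated replicate 3, the most extreme array of its group, the counts were 474 and 358. The replicates of both groups were about equally tight, with a median SD per cluster of 0.091 in L-lactate and 0.099 in untreated cells.

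TXNIP and ARRDC4 code for alpha-arrestins that limit glucose uptake, and both genes are known targets of the nutrient-sensing factor MondoA. TXNIP, the thioredoxin-interacting protein, had signals of 8.56, 9.11, 8.66, 8.61 and 8.88 on the L-lactate arrays, against 4.36, 4.09, 4.17, 4.22 and 4.42 on the untreated arrays. Every L-lactate array was more than 4 units above every untreated one, and the gene was 22.8-fold higher (log2 difference 4.51, SE 0.094, adjusted p = 3.14e-13). ARRDC4 measured 7.99, 8.21, 8.05, 8.13 and 8.39 on the L-lactate arrays, against 5.39, 5.13, 5.24, 5.09 and 5.28 on the untreated arrays. It was 7.60-fold higher (adjusted p = 6.64e-12). In NaCl cells both genes stayed near untreated levels, at 4.25 ± 0.076 for TXNIP and 5.17 ± 0.12 for ARRDC4 (SD, n = 5), and the difference between L-lactate and NaCl was 4.51 for TXNIP (adjusted p = 6.33e-13) and 2.98 for ARRDC4 (adjusted p = 4.93e-12). The family did not move as a whole. ARRDC3 was lower at -0.61, with NaCl cells at -0.58 against untreated cells, and lost the call without untreated replicate 1 (-0.58). MXI1, a repressor partner of MAX, rose by 0.82, and MYC, which competes for the same partner, fell to 6.73, 6.47, 6.56, 6.64 and 6.56 on the L-lactate arrays, against 7.71, 7.78, 7.69, 7.90 and 7.71 on the untreated arrays. These ranges did not overlap (log2 difference -1.17, SE 0.062, adjusted p = 2.91e-09), and NaCl cells averaged 7.83 ± 0.12. Of the 16 measured genes of this network, 3 were higher and 2 lower (31.2% called), with a median of -0.043.

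Secreted and placental proteins followed. PAG11, a pregnancy-associated glycoprotein otherwise known from the ruminant trophoblast, had 8.02, 7.90, 7.47, 7.82 and 8.49 on the L-lactate arrays, against 4.90, 5.23, 5.10, 4.53 and 5.29 on the untreated arrays. The groups were more than 2 units apart (7.64-fold, adjusted p = 9.01e-08). NaCl cells reached the same level, 7.30, 7.54, 8.08, 7.49 and 8.36, and L-lactate and NaCl arrays overlapped (difference 0.19, adjusted p = 0.65). AHSG, the gene of the plasma glycoprotein fetuin-A, showed another pattern. It measured 7.29, 7.52, 7.14, 7.45 and 6.98 on the L-lactate arrays, against 4.96, 4.96, 5.02, 4.89 and 4.83 on the untreated arrays, a 5.08-fold increase (adjusted p = 5.65e-10), whereas the NaCl arrays lay below the untreated ones at 4.24 ± 0.20 (SD, n = 5, NaCl minus untreated -0.69, adjusted p = 0.00037). Among the 31 plasma and placental proteins measured, 3 were higher and 2 lower (16.1% called). SERPINA1, alpha-1-antitrypsin, was the third higher one (0.60) and lost the call without L-lactate replicate 1 or 2 or untreated replicate 1 (0.53 to 0.57). The lower ones were the protease inhibitor A2M (-0.90, with -0.69 in NaCl) and the clotting factor F8 (-0.83, with -0.053 in NaCl).

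TBX18, a developmental T-box factor known from the epicardium and the only called gene of 20 T-box and mesenchymal transcription factors (5.0% called), had signals of 8.13, 8.10, 7.85, 8.01 and 8.09 on the L-lactate arrays, against 5.66, 5.76, 5.52, 5.38 and 5.83 on the untreated arrays. NaCl arrays took a middle position with 6.98, 7.13, 7.44, 7.18 and 7.19, so that TBX18 was 5.30-fold higher in L-lactate and 2.94-fold higher in NaCl cells than in untreated cells, and L-lactate exceeded NaCl by 0.85 (adjusted p = 6.5e-06). NTS, the precursor of neurotensin, had 7.10, 6.98, 6.84, 7.01 and 7.20 on the L-lactate arrays, against 4.78, 4.57, 4.24, 4.88 and 4.88 on the untreated arrays, and the NaCl mean of 7.07 ± 0.28 was as high as that of L-lactate (difference -0.04, adjusted p = 0.899). CHRNA2, a nicotinic acetylcholine receptor subunit, had 7.03, 7.10, 6.86, 6.94 and 7.01 on the L-lactate arrays, against 4.79, 4.88, 4.72, 4.78 and 4.82 on the untreated arrays. Here the NaCl mean was 5.01 ± 0.074 and the difference from NaCl 1.98. In the tables of the study CHRNA2 shares its entry with LOC101908817, a related receptor subunit gene, so the signal may not belong to CHRNA2 alone. The cation channel gene TRPC5 (1.97), the ubiquitin ligase adaptor gene ASB9 (2.05), FSTL4 of the follistatin-like family (2.01) and PLA2G7, which codes for the enzyme that inactivates platelet-activating factor (1.92), were between 3.79- and 4.13-fold higher. In these 4 genes NaCl exceeded untreated cells by 0.39 to 0.62. Further increases between 1.63 and 1.87 were seen for TMEM26, MLLT11, the growth factor NRG1, TMEM255A, GPRIN3, the mitochondrial carbonic anhydrase CA5B, the chemokine CXCL12 and the phosphatase DUSP5. NRG1 was almost as high in NaCl cells (1.62 against untreated), and DUSP5 was not raised there (-0.0009).

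Among the largest decreases, GPR34, a receptor for lysophosphatidylserine, had 3.45, 3.39, 3.69, 3.71 and 3.86 on the L-lactate arrays, against 6.81, 6.75, 6.25, 6.27 and 5.95 on the untreated arrays. That is a 6.90-fold lower level (adjusted p = 7.46e-09), and NaCl cells averaged 4.13 ± 0.26. A second cluster of this gene holds identical values, and another with a signal under 2 in both groups differed by -0.11 (adjusted p = 0.295). LOC767968, which the RefSeq annotation lists with the synonyms BEX1 and BEX2, was 4.49-fold lower, and NaCl cells were lower still (3.83 ± 0.25, with L-lactate minus NaCl at 0.81). SST, the somatostatin gene, fell to 5.04, 5.11, 4.84, 4.62 and 5.02 on the L-lactate arrays, against 7.14, 7.06, 7.19, 6.72 and 7.14 on the untreated arrays. NaCl arrays lay between them with 5.95, 6.16, 6.06, 6.12 and 5.96. OLR1, the receptor for oxidised LDL, had 6.34, 6.12, 6.28, 6.17 and 5.98 on the L-lactate arrays, against 8.19, 8.31, 8.23, 8.21 and 8.16 on the untreated arrays. It was 4.12-fold lower, and 3.33-fold lower in NaCl.

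NRP2, a co-receptor for semaphorins and VEGF, was 3.71-fold lower (3.84 against 5.73 on average), and EMB, the chaperone embigin of monocarboxylate transporters, 3.67-fold (2.96 against 4.83). SLC1A5, the main glutamine transporter, had 6.63, 6.47, 6.58, 6.47 and 6.24 on the L-lactate arrays, against 8.23, 8.38, 8.39, 8.29 and 8.33 on the untreated arrays. The decrease of -1.85 went beyond that in NaCl cells (-0.56), and L-lactate and NaCl differed by -1.28 (adjusted p = 7.33e-09). APOD, a lipocalin that carries lipids, was variable, with 1 L-lactate array at 7.76 and the other 4 between 6.50 and 6.82, against 8.52 to 8.86 in untreated cells. VIPR2 (a VIP and PACAP receptor, -1.77), SLC16A6 (a monocarboxylate carrier family member, -1.74), MGC133636 (-1.62), AK5 (an adenylate kinase, -1.51) and ISM1 (-1.47) were lower as well. For these 5 and for EMB and APOD, L-lactate minus NaCl was between -0.22 (VIPR2) and -0.063 (APOD), and the smallest adjusted p was 0.298 for AK5. Other decreases were much larger than in NaCl. PRPS2, an enzyme that makes the sugar phosphate for nucleotide synthesis, had 6.63, 6.67, 6.56, 6.42 and 6.62 on the L-lactate arrays, against 8.21, 8.19, 8.17, 8.06 and 8.05 on the untreated arrays, with NaCl at 7.98 ± 0.072. GFRA1, the GDNF receptor, was 2.83-fold lower with NaCl at -0.087 against untreated, and LOC100139670 was 3.18-fold lower with NaCl at -0.39. CCDC39, COL1A2, GPNMB and ASPN completed the 20, between -1.63 and -1.54.

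**Figure D2:**
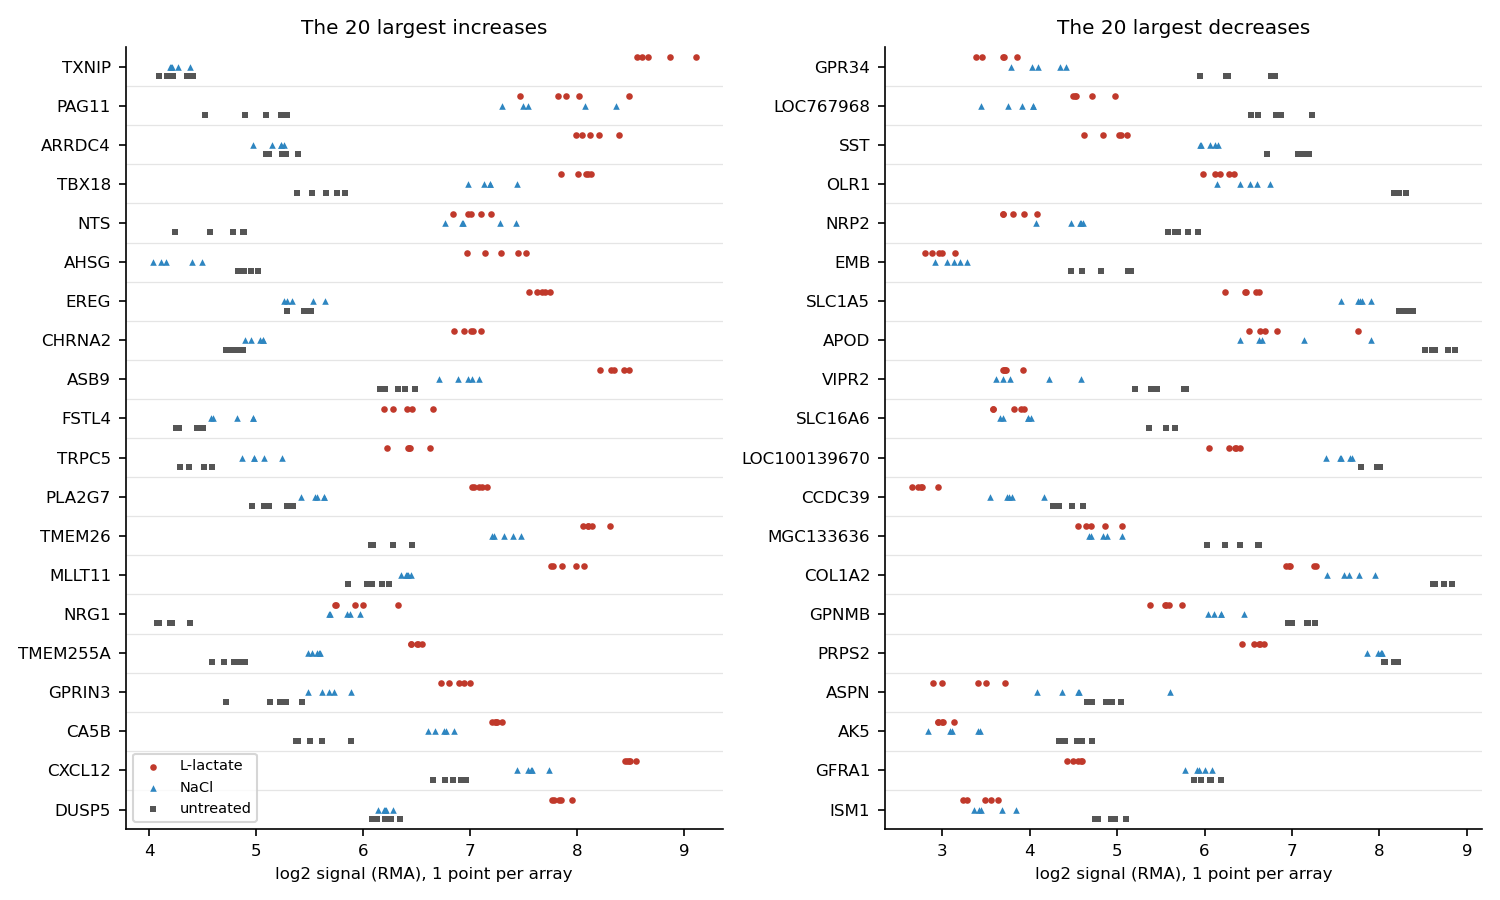
Log2 signals of every array for the 20 genes with the largest increase and the 20 with the largest decrease, sorted by size, with L-lactate arrays as red circles, NaCl arrays as blue triangles and untreated arrays as grey squares. L-lactate and untreated arrays are apart in all 40 genes, and the NaCl arrays lie near the untreated ones for TXNIP, near the L-lactate ones for NTS and beyond the untreated ones for AHSG.

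The integrated stress response couples amino acid shortage and other stresses to the factor ATF4, which switches on amino acid transport, serine and asparagine synthesis and tRNA charging. Of 34 measured genes of this response, 24 were lower and 1 higher, 73.5% of the members against 3.27% of all clusters, and the median difference was -0.72. The mean signal of the list was between 7.88 and 8.05 on the L-lactate arrays, between 8.41 and 8.55 on the NaCl arrays and between 8.63 and 8.72 on the untreated arrays. No L-lactate array reached the range of either other group. DDIT3, the CHOP transcription factor, had 6.83, 6.72, 6.70, 6.70 and 6.54 on the L-lactate arrays, against 8.01, 8.21, 8.14, 8.11 and 7.90 on the untreated arrays. It was 2.59-fold lower (adjusted p = 2.26e-09). NUPR1, a stress-induced chromatin protein, had 6.72, 6.76, 6.83, 6.70 and 6.78 on the L-lactate arrays, against 7.88, 7.98, 8.14, 7.97 and 7.90 on the untreated arrays, and the NaCl mean was 7.83 ± 0.076. SLC7A11, the cystine importer, had 7.36, 7.63, 7.52, 7.44 and 7.28 on the L-lactate arrays, against 8.64, 8.61, 8.67, 8.66 and 8.69 on the untreated arrays. NaCl minus untreated was -0.04 there (adjusted p = 0.768).

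ALDH1L2, a mitochondrial folate enzyme (-1.20), and the lipoprotein receptor VLDLR (-1.20) were the other members with the largest decreases. For VLDLR the NaCl cells already stood at -0.83. Some members were picked for description after their values had been seen. These were TRIB3, a pseudokinase that feeds back on ATF4 (-1.13), CBS of cysteine synthesis (-1.04), PHGDH and PSAT1 of serine synthesis (-0.89 and -0.61), ASNS, the asparagine synthetase (-0.72), CHAC1, which degrades glutathione (-0.73), and the hormone GDF15 (-0.66). For GDF15 the level in NaCl was as low as in L-lactate cells (-0.086 between them, adjusted p = 0.519). PSAT1 lost the call without L-lactate replicate 5 (-0.56). ATF4 itself was -0.31 and below the fold threshold (adjusted p = 3.3e-06), with no overlap of the groups. GPT2, the mitochondrial alanine transaminase, was the exception with 8.27, 8.29, 8.30, 8.31 and 8.30 on the L-lactate arrays, against 7.44, 7.39, 7.46, 7.48 and 7.55 on the untreated arrays, and rose 1.78-fold.

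**Figure D3:**
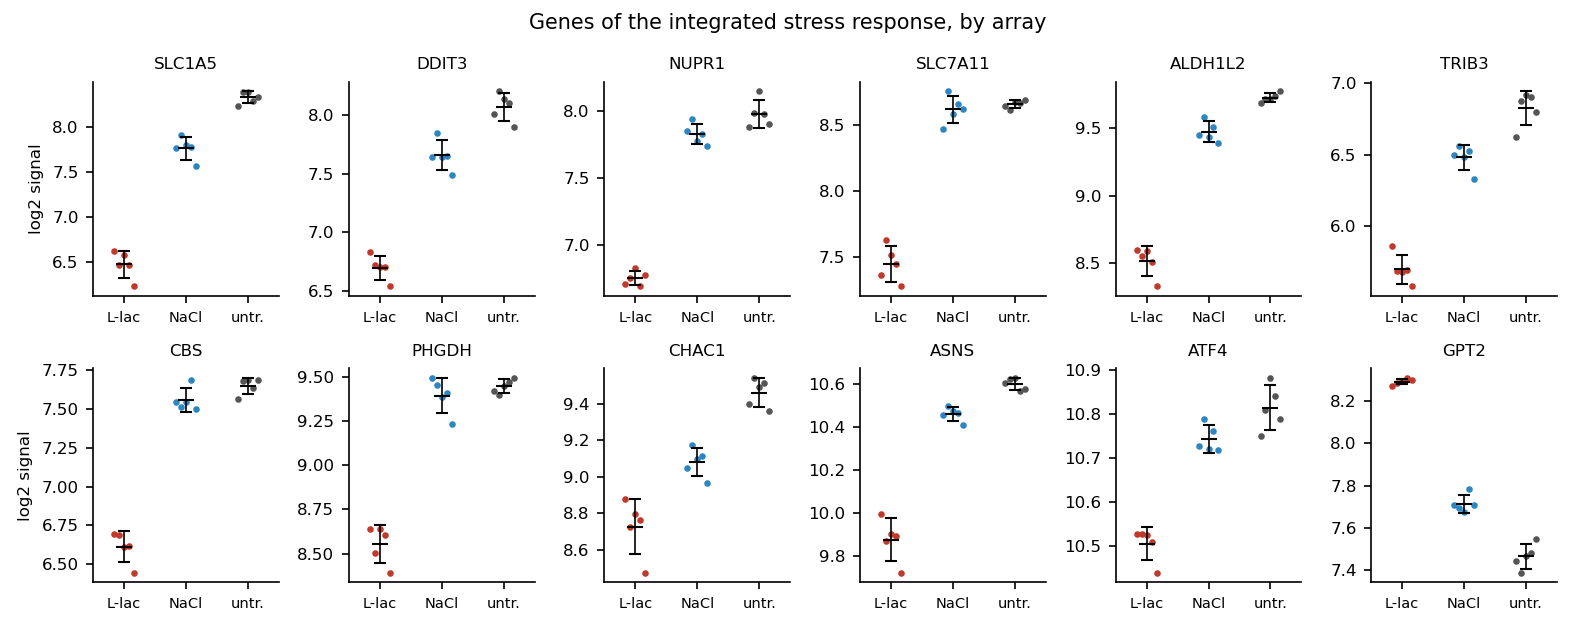
Log2 signals of 12 genes of the integrated stress response in L-lactate (red), NaCl (blue) and untreated (grey) cells, 1 point per array, with mean and SD as black bars and a separate y axis for each gene. The L-lactate arrays are the lowest group in 11 genes and the highest for GPT2, and NaCl arrays lie between the other groups or beside the untreated ones.

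Genes of amino acid transport, tRNA charging and amino acid breakdown were more often lower than higher. Of 28 amino acid transporters, 8 were lower and 1 higher (32.1% called, median -0.19). Beside SLC1A5 and SLC7A11, the lower ones included the large neutral amino acid carriers SLC7A5 (-0.90) and SLC43A1 (-0.88) and the serine and alanine carrier SLC1A4 (-0.80), and several of these belong to the stress response list as well. The exception was the taurine transporter SLC6A6 at 6.77, 6.81, 6.73, 6.74 and 6.84 on the L-lactate arrays, against 5.18, 5.12, 5.16, 5.24 and 5.48 on the untreated arrays. It was 2.91-fold higher and also higher in NaCl (0.94). Among 16 cytosolic aminoacyl-tRNA synthetases (18.8% called), 3 were lower, WARS1 (-0.73), GARS1 (-0.72) and SARS1 (-0.64), with 0 higher and a median of -0.34. The breakdown of branched-chain amino acids had 4 lower genes of 18 and 0 higher (22.2% called). PPM1K, the phosphatase that activates the branched-chain keto acid dehydrogenase, had 7.67, 7.51, 7.61, 7.43 and 7.53 on the L-lactate arrays, against 8.85, 8.90, 8.81, 8.90 and 8.83 on the untreated arrays. The NaCl mean was 8.90 ± 0.014, close to untreated. The transaminase BCAT1 (-1.12), the carboxylase subunit MCCC1 (2.0-fold lower) and the dehydrogenase subunit DBT (-0.73) were the others. Among 18 ER chaperone genes (11.1% called), 2 were lower, HYOU1 (-0.81) and SEL1L (-0.67), and of 12 purine synthesis genes PRPS2 alone (8.33% called).

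The genes that carry and use lactate themselves were divided. Of 23 measured, 2 were higher and 4 lower (26.1% called). SLC16A3, the lactate exporter MCT4, had 7.55, 7.52, 7.53, 7.50 and 7.40 on the L-lactate arrays, against 6.91, 6.66, 6.69, 6.58 and 6.59 on the untreated arrays. It was 1.76-fold higher (adjusted p = 4.39e-06), while NaCl minus untreated was -0.32. The other lactate transporters described, SLC16A1 (MCT1, -0.079, adjusted p = 0.137) and SLC16A7 (MCT2, -0.20, adjusted p = 0.0158), and lactate dehydrogenase A (0.15, adjusted p = 0.289) did not pass the call, and their arrays overlapped between the groups. GPT, the cytosolic alanine transaminase that links alanine to pyruvate, had 4.49, 4.19, 4.46, 4.19 and 4.28 on the L-lactate arrays, against 5.54, 5.43, 5.56, 5.51 and 5.36 on the untreated arrays. It was thus lower while its mitochondrial counterpart GPT2 was higher, and NaCl left GPT at 5.48 ± 0.075. PCK2, the mitochondrial enzyme that makes phosphoenolpyruvate, (-0.98), PDK4, which inhibits pyruvate dehydrogenase (-0.62, with -0.47 in NaCl), and EMB were the other lower genes.

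Of 18 glycolytic genes, 3 were higher and 0 lower (16.7% called), and 17 of 18 differences were above 0, with a median of 0.33. ENO2, an enolase, had a mean of 6.50 ± 0.11 in L-lactate cells and 5.40 ± 0.12 in untreated cells, a 2.14-fold difference. The glucose transporter SLC2A3 (0.67) and the regulator PFKFB4 (0.62) were the others. In the TCA cycle, 1 of 18 genes was called, the succinyl-CoA ligase subunit SUCLA2 (0.66), a share of 5.56% near the 3.27% of all clusters. Hypoxia targets went both ways, 4 higher and 3 lower of 22 (31.8% called). NDUFA4L2, which lowers mitochondrial respiration in hypoxia, averaged 9.02 ± 0.072 in L-lactate cells and 8.01 ± 0.31 in untreated cells, without overlap. It was 2.01-fold higher in L-lactate and, with 7.09, 6.85, 6.56, 7.02 and 6.31, lower in NaCl than in untreated cells. The mitophagy receptor BNIP3 rose by 0.75 and VEGFA stood at 0.48, below the fold threshold. LOX, the collagen cross-linking oxidase, averaged 3.39 ± 0.50 in L-lactate cells and 4.39 ± 0.20 in untreated cells (adjusted p = 0.0153), with overlapping groups and an exact two-sided permutation p of 0.0159. STC2, a secreted inhibitor of PAPPA, was -0.82.

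Genes of lipid synthesis were called in 1 direction only, higher in L-lactate cells. Of 17 cholesterol genes, 4 were called higher and 0 lower (23.5% called), and 16 of the 17 differences were above 0 (median 0.44, 0.022 for NaCl). TM7SF2, a sterol reductase, had 9.04, 9.03, 8.98, 9.01 and 9.02 on the L-lactate arrays, against 8.02, 8.15, 8.09, 8.15 and 8.26 on the untreated arrays. The kinase PMVK (0.79), the feedback regulator INSIG1 (0.68) and the cyclase LSS (0.62) were the other called members. Of 14 fatty acid genes, 4 were higher and 0 lower (28.6% called). These were LPIN1, which makes diacylglycerol and also acts on transcription (7.92 ± 0.041 in L-lactate cells and 6.56 ± 0.12 in untreated cells, 2.57-fold), ACSS2 and ACLY, both sources of acetyl-CoA (0.75 and 0.69), and the fatty acid synthase FASN (0.66). In NaCl these 4 differed from untreated cells by 0.10 (ACSS2) to 0.24 (LPIN1). Uptake and oxidation were mixed, with 3 higher and 3 lower of 28 (21.4% called). The lipoprotein lipase LPL (0.90), FABP3 (0.81) and ACSL4 (0.75) were higher. The fatty acid transporter SLC27A2 (-1.20, with 0.31 in NaCl) and the scavenger receptor CD36 (-0.93, with -0.60 in NaCl) were lower beside OLR1.

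Of 22 measured genes that answer to LH or build the cumulus matrix, 7 were higher and 1 lower, 36.4% called against 3.27% of all clusters. EREG, the EGF-like ligand epiregulin, had 7.55, 7.75, 7.68, 7.71 and 7.63 on the L-lactate arrays, against 5.49, 5.45, 5.29, 5.48 and 5.52 on the untreated arrays. It was 4.65-fold higher (adjusted p = 4.13e-11), and NaCl cells stayed at 5.42 ± 0.17. AREG, amphiregulin, its neighbour in the genome, had 3.08, 3.20, 2.90, 2.89 and 3.57 on the L-lactate arrays, against 2.23, 2.49, 2.11, 2.24 and 2.49 on the untreated arrays and was 1.76-fold higher from a low signal. HAS2, the hyaluronan synthase of cumulus expansion, had 5.78, 5.98, 5.82, 6.08 and 5.33 on the L-lactate arrays, against 4.31, 4.46, 4.37, 4.42 and 4.34 on the untreated arrays, and PTX3, the pentraxin that links hyaluronan, 7.80, 8.07, 7.84, 7.87 and 7.46 on the L-lactate arrays, against 7.09, 6.90, 6.96, 6.91 and 6.91 on the untreated arrays. HAS2 was 2.67-fold and PTX3 1.81-fold higher than in untreated cells, yet NaCl cells lay below untreated cells in both, with 2.75, 3.53, 2.98, 3.15 and 2.82 for HAS2 and 5.46, 5.78, 5.26, 5.60 and 5.41 for PTX3. The difference between L-lactate and NaCl was therefore wider, 2.75 for HAS2 and 2.30 for PTX3. TNFAIP6, which transfers protein chains to hyaluronan, was 0.53 in L-lactate and -0.68 in NaCl and missed the fold threshold against untreated cells. RUNX1, a transcription factor induced by LH, had 8.77 ± 0.078 in L-lactate cells and 7.85 ± 0.066 in untreated cells. The pantetheinases VNN2 and VNN1, the only called genes of 28 in the thioredoxin and glutathione list (7.14% called), parted, with VNN2 higher by 0.73 and VNN1 at 4.26, 4.24, 4.31, 4.29 and 4.11 on the L-lactate arrays, against 5.61, 5.62, 5.49, 5.65 and 5.47 on the untreated arrays. VNN1 was thus 2.51-fold lower, and NaCl minus untreated was 0.20 (adjusted p = 0.113). The matrix protease ADAMTS1 passed narrowly (0.59) and lost the call without L-lactate replicate 2, 4 or 5 or untreated replicate 3 (0.57 to 0.58). The nuclear receptor NR4A2 was lower (-0.59), also narrowly, and lost the call without L-lactate replicate 2 or untreated replicate 3, 4 or 5 (-0.58 to -0.53).

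Of 17 genes of steroid synthesis, 1 was higher and 1 lower (11.8% called). CYP19A1 had 7.80, 7.60, 7.84, 7.58 and 7.91 on the L-lactate arrays, against 8.66, 8.49, 8.50, 8.45 and 8.46 on the untreated arrays. The lowest untreated array lay above the highest L-lactate array, aromatase was 1.70-fold lower (adjusted p = 2.16e-07), and it was higher in NaCl than in untreated cells by 0.46. FDX1, ferredoxin, which passes electrons to the side-chain cleavage enzyme, had 9.44, 9.56, 9.45, 9.52 and 9.46 on the L-lactate arrays, against 8.56, 8.59, 8.46, 8.38 and 8.62 on the untreated arrays, a 1.95-fold increase. CYP11A1, that enzyme, was 0.28 and HSD3B1, which makes progesterone, 0.16, both without overlap and below the fold threshold. No gonadotropin or steroid receptor was called (0 of 11 higher, 0 lower), and PGR had the largest difference (0.25, adjusted p = 0.00265). A dimmer cluster of PGR differed by 0.0335 (adjusted p = 0.694). FSHR had 9.01, 8.95, 9.10, 8.94 and 8.91 on the L-lactate arrays, against 9.15, 9.08, 8.96, 9.09 and 9.04 on the untreated arrays, with overlapping groups (adjusted p = 0.258). LHCGR, the LH receptor, had 5.70, 4.81, 4.72, 4.60 and 4.96 on the L-lactate arrays, against 4.89, 5.04, 4.80, 5.12 and 4.95 on the untreated arrays. L-lactate replicate 1 was well above the other 4, the groups overlapped and the means differed by -0.0014 (exact two-sided permutation p = 1).

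Of the 14 GC markers, only CYP19A1 passed the call (7.14% called). FOXL2, the identity factor of GC, was -0.39 (adjusted p = 0.000243), AMH -0.36 (adjusted p = 0.00286), its receptor AMHR2 -0.35 (adjusted p = 7.64e-06) and INHA -0.27 (adjusted p = 2.59e-05). HSD17B1, which reduces estrone to estradiol, was -0.30. NR5A2 stood at 0.27 and GATA4 at 0.16, while INHBA (-0.071), ESR2 (-0.084), NR5A1 (-0.10), FST (-0.079) and CDH2 (-0.0085) stayed close to untreated levels. In NaCl cells FOXL2, AMH, AMHR2 and INHA were at 0.19, 0.38, 0.27 and 0.14 relative to untreated cells.

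**Figure D4:**
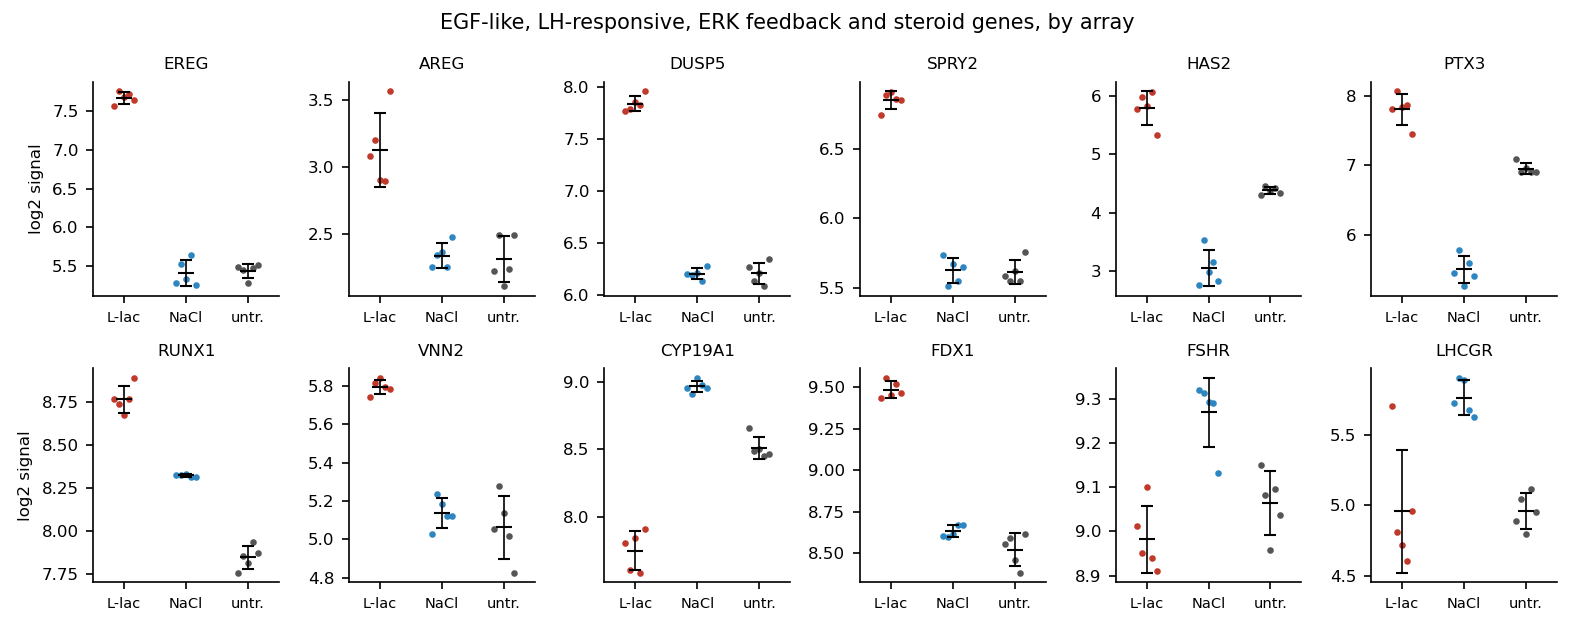
Log2 signals of EGF-like ligands, ERK feedback, LH-responsive and steroid genes in L-lactate (red), NaCl (blue) and untreated (grey) cells, 1 point per array, with mean and SD as black bars and a separate y axis for each gene. The L-lactate arrays are above the untreated ones for EREG, AREG, DUSP5, SPRY2, HAS2, PTX3, RUNX1, VNN2 and FDX1, below them for CYP19A1 and mixed with them for FSHR and LHCGR.

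EGF-like ligands signal through ERBB receptors to the ERK kinases, which in turn induce their own inhibitors. Among 16 such feedback genes, 9 were higher and 0 lower, 56.2% of the list, with a median of 0.64 (0.0096 in NaCl). DUSP5, a phosphatase that inactivates nuclear ERK, had 7.77, 7.79, 7.86, 7.83 and 7.96 on the L-lactate arrays, against 6.27, 6.13, 6.21, 6.08 and 6.34 on the untreated arrays, and SPRY2, a sprouty inhibitor, 6.74, 6.88, 6.91, 6.86 and 6.85 on the L-lactate arrays, against 5.59, 5.55, 5.62, 5.54 and 5.76 on the untreated arrays. NaCl cells were at the untreated level in both. SPRY4 and SPRY1 rose by 1.45 and 1.47, and NaCl cells also showed more of them, 0.51 and 1.04. The ERK-driven ETS factors ETV5 (0.92) and ETV4 (0.79), IER3 (0.98) and DUSP1 (0.66) were higher as well, while DUSP6 stood at 0.22. Of 12 EGF-like ligands and receptors, 3 were higher, EREG, AREG and NRG1, and 0 lower (25% called). Of 22 immediate early genes, 3 were higher and 2 lower (22.7% called), with the AP-1 subunits FOSL1 (0.94) and FOSL2 (0.64) and IER3 higher and MYC and NR4A2 lower. Of 34 genes of cAMP signalling, 3 were higher and 1 lower (11.8% called), among them the adenylate cyclase ADCY2 (1.31, with 1.34 in NaCl), the GABA-B receptor subunit GABBR2 (1.16, with 0.05 in NaCl) and the kinase anchor AKAP12 (0.87). The lower one was another anchor, AKAP5 (-0.60), which lost the call without L-lactate replicate 5 or untreated replicate 5 (-0.57 and -0.55).

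BMP2, a ligand of the TGF-beta family, had 8.49, 8.54, 8.50, 8.53 and 8.62 on the L-lactate arrays, against 6.82, 6.90, 6.90, 6.97 and 7.08 on the untreated arrays. It was 3.03-fold higher, with NaCl cells at 7.52 ± 0.091, and the BMP targets ID1 (0.83) and SMAD7 (0.83) were higher, whereas BMP6 (-0.83) and TGFB3 (-0.83) were lower, as they were in NaCl (-0.73 and -0.73). Of 28 genes of this signalling, 3 were higher and 2 lower (17.9% called against 3.27% of all clusters), 19 of the 28 differences were above 0 (median 0.17), and the list averaged between 7.48 and 7.53 on the L-lactate arrays, between 7.24 and 7.29 on the NaCl arrays and between 7.30 and 7.42 on the untreated arrays. NDP, the norrin ligand of the WNT receptor FZD4, rose 2.54-fold and WNT5A passed narrowly (0.60, with the call lost at 0.58 without untreated replicate 3 or 4), and LEF1 (-0.70), WNT5B (-0.69) and FZD1 (-0.64) were lower, so that 2 of 27 WNT genes were higher and 3 lower (18.5% called). WNT5B was lower still in NaCl cells (-0.98), where LEF1 stood at -0.25 and FZD1 at 0.011. JAG1, a Notch ligand that was as low in NaCl cells (-1.19, -1.32 in NaCl), was the single called gene of 15 in that pathway (6.67% called). In the IGF system, with 3 higher and 2 lower of 18 (27.8% called), PAPPA, the protease that frees IGF from its binding proteins, was 2.20-fold higher, IRS1 rose by 0.61 (0.57 and 0.58 without L-lactate replicate 4 and untreated replicate 3, where the call was lost) and the binding protein IGFBP6 was lower (-0.90, with -0.59 in NaCl). H19, the imprinted non-coding RNA next to IGF2, had 7.68, 8.03, 7.86, 7.99 and 7.38 on the L-lactate arrays, against 6.83, 7.06, 6.78, 6.83 and 6.70 on the untreated arrays. It was 1.92-fold higher than in untreated cells, and far lower in NaCl (4.26, 5.21, 3.88, 4.16 and 4.22). Of 10 genes of the GDNF family and its receptors, 2 changed (20.0% called) and in opposite directions, with GFRA2 higher at 8.64, 8.64, 8.61, 8.64 and 8.52 on the L-lactate arrays, against 7.24, 7.39, 7.31, 7.38 and 7.21 on the untreated arrays and GFRA1 lower.

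Of 39 guidance genes, 1 was higher and 4 were lower (12.8% called against 3.27% of all clusters), while the differences of the whole list were split into 19 above and 20 below 0 (median -0.012). PLXNC1, a semaphorin receptor, had 5.73, 5.76, 5.75, 5.60 and 5.65 on the L-lactate arrays, against 6.92, 7.06, 6.88, 7.04 and 7.19 on the untreated arrays, and NaCl was at 6.10 ± 0.11. PLXND1 (-0.79, with -0.69 in NaCl) and the guidance cue NTN1 (-0.76, with 0.32 in NaCl) were lower beside NRP2, and the ephrin receptor EPHA7 was higher (0.65). Among 35 angiogenic factors (14.3% called, median -0.041), 2 were higher and 3 lower. The higher ones were ANGPT1 (1.28, with 0.99 in NaCl) and the endothelin receptor EDNRB (0.75, with -0.28 in NaCl). The lower ones were NRP2, the lymphatic growth factor VEGFC at 8.49, 8.55, 8.57, 8.47 and 8.35 on the L-lactate arrays, against 9.51, 9.50, 9.60, 9.56 and 9.46 on the untreated arrays, and SERPINF1, the angiogenesis inhibitor PEDF, with -1.32. Relative to untreated cells, NaCl cells were at -1.27 for NRP2, -0.24 for VEGFC and -0.39 for SERPINF1.

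Among the genes of the collagen matrix, more were lower than higher. Of 26 collagen genes, 7 were lower and 1 higher (30.8% called against 3.27% of all clusters), and 22 of the 26 differences were below 0 (median -0.24, against -0.25 in NaCl). COL1A2 had 7.25, 6.93, 6.96, 7.27 and 6.97 on the L-lactate arrays, against 8.64, 8.83, 8.62, 8.74 and 8.62 on the untreated arrays. It was 3.06-fold lower, with NaCl at 7.67 ± 0.20. COL3A1 (-1.10), COL12A1 (-0.86), COL6A1 (-0.84), COL15A1 (-0.70), COL18A1 (-0.68) and COL6A2 (-0.67) were lower too. All of these were below untreated levels in NaCl cells as well, between -0.85 (COL15A1) and -0.24 (COL6A2). COL1A1, the partner chain of COL1A2 in type I collagen, differed in direction with 7.91, 7.77, 7.82, 7.85 and 7.77 on the L-lactate arrays, against 7.07, 7.25, 7.14, 7.22 and 7.04 on the untreated arrays, and was lower in NaCl (6.75, 7.11, 6.30, 6.65 and 6.38). Among 33 matrix glycoproteins (24.2% called), 7 were lower, led by the small leucine-rich proteins ASPN (3.30 ± 0.34 in L-lactate cells and 4.84 ± 0.16 in untreated cells), ECM2 (4.65 ± 0.14 in L-lactate cells and 6.05 ± 0.17 in untreated cells), FMOD (-1.13) and PRELP (-0.79) and the hyaluronan link protein HAPLN1 (-1.07), and FBLN1 was higher (0.91). For FMOD the NaCl cells were as low (-1.12), and for ECM2, PRELP and HAPLN1 they were at -0.22, -0.0047 and -0.054. Of 23 matrix proteases and inhibitors (21.7% called), 4 were higher, MMP9 (0.77), MMP19 (0.70), ADAMTS1 and ADAMTS5 (0.59), and 1 was lower, ADAM12 (-0.73). ADAMTS5 (0.70) and ADAM12 (-0.90) differed at least as much in NaCl cells. MMP9, MMP19 and ADAMTS1 were at 0.081, 0.21 and -0.39 there. ADAMTS5 lost the call without L-lactate replicate 4 or 5 or untreated replicate 1 or 3 (0.55 to 0.57). The matrix proteins fibronectin, FN1 (-0.63, with -0.62 in NaCl), and fibrillin, FBN1 (-0.61, with -0.10 in NaCl), were the remaining lower ones. FBN1 lost the call without L-lactate replicate 3 or untreated replicate 4 (-0.57 for both). COL1A1, COL1A2 and COL3A1 also mark stromal cells. The 7 stromal markers averaged between 8.31 and 8.44 on the L-lactate arrays, between 7.96 and 8.46 on the NaCl arrays and between 8.47 and 8.60 on the untreated arrays, with PDGFRA (0.86) and COL1A1 higher, COL1A2 and COL3A1 lower and DCN at 0.13. The part of such cells in the collagen result was not tested.

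Genes of cell junctions showed 4 lower and 0 higher genes of 25 (16% called against 3.27% of all clusters). These were the connexins GJA4 (-0.76) and GJA5 (-0.73) and the cadherins CDH20 (-1.19) and CDH13 (-0.83). All 4 were lower in NaCl too, between -1.10 and -0.60. The lysophospholipid receptors S1PR3 (-0.81, with -0.47 in NaCl) and LPAR3 (-0.60, with -0.19 in NaCl) and the orphan receptor GPR85 (-0.73, with -0.25 in NaCl) were lower together with GPR34. None of 19 such receptors was higher (21.1% called). LPAR3 lost the call without L-lactate replicate 1 or untreated replicate 3 (-0.58 and -0.56).

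All 26 measured genes of DNA replication and mitosis had differences above 0, with a median of 0.35, and 6 were called higher (23.1%). RRM2, a subunit of ribonucleotide reductase, had 6.30, 6.45, 6.05, 6.28 and 6.40 on the L-lactate arrays, against 5.33, 5.29, 5.29, 5.10 and 5.44 on the untreated arrays. CDC6 (0.82), KIF20A (0.70), CDK1 (0.70) and DLGAP5 (0.66) were similar, BUB1B passed narrowly (0.62) and MKI67 did not pass (0.54). The call of BUB1B was lost without L-lactate replicate 5 or untreated replicate 3 or 4 (0.54 to 0.58), and MKI67 gained one without L-lactate replicate 3 (0.61) or untreated replicate 1 (0.59). CCND1, cyclin D1, had 6.98, 6.99, 6.50, 6.97 and 6.87 on the L-lactate arrays, against 5.61, 5.56, 5.45, 5.31 and 5.72 on the untreated arrays. It was 2.52-fold higher, and 4 of 18 G1 genes were higher in all (22.2% called), with CCNE1 (0.64), CDK2 (0.66) and the inhibitor CDKN1C (0.76). Of 22 apoptosis genes, 1 was higher and 1 lower (9.09% called). The decoy receptor TNFRSF10D stood at 1.23 (0.89 at its second cluster) and BCL2, an inhibitor of cell death, at -0.72 (-0.34 at its second cluster).

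IL18, an interleukin-1 family cytokine, had 9.13, 9.19, 9.20, 9.22 and 9.23 on the L-lactate arrays, against 7.67, 7.70, 7.57, 7.67 and 7.69 on the untreated arrays and was 2.89-fold higher, with NaCl at 0.92 relative to untreated cells. With CXCL12 and the interleukin-1 antagonist IL1RN (1.10) it made up the 3 higher of 28 chemokines and cytokines (10.7% called), and 0 were lower. LTC4S, the leukotriene C4 synthase, had 7.37, 7.45, 7.44, 7.35 and 7.25 on the L-lactate arrays, against 5.97, 5.94, 5.90, 5.90 and 5.91 on the untreated arrays. It was 2.72-fold higher and, at 5.25, 5.32, 5.21, 5.10 and 5.06, lower in NaCl. PTGFR, the receptor for prostaglandin F2alpha, was -0.87 in L-lactate and -1.47 in NaCl. Of 26 genes of prostanoids and leukotrienes 2 were higher and 2 lower (15.4% called). Interferon-stimulated genes had 0 higher and 0 lower of 23, between -0.55 and 0.47, with 12 above and 11 below 0. Of 20 ribosome biogenesis genes none was called either, but 19 differences were below 0 (between -0.50 and 0.014, median -0.15). That list averaged between 6.88 and 6.92 on the L-lactate arrays, between 7.03 and 7.06 on the NaCl arrays and between 7.07 and 7.12 on the untreated arrays.

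Neuropeptides beside NTS and SST included NPY, with 5.45, 5.71, 5.58, 5.76 and 4.79 on the L-lactate arrays, against 3.83, 3.79, 3.91, 3.71 and 4.26 on the untreated arrays and a NaCl mean of 3.52 ± 0.28, and ADCYAP1, the precursor of PACAP (8.21 ± 0.11 in L-lactate cells and 6.95 ± 0.10 in untreated cells, 2.41-fold). A further higher cluster is annotated as NPS, but its identity is in doubt, since its gene ID was not found in the RefSeq table and the tables of the study give it another name. With that cluster, 4 neuropeptide genes were higher and 3 lower of 31 (22.6% called). Of 28 nicotinic, GABA and glutamate receptors 3 were higher and 1 lower (14.3% called). The glutamate receptor subunits went apart with GRIA1 at 1.25 (0.51 in NaCl) and GRIA2 at -0.83 (-0.58 in NaCl). Genes of the hypertonic response and sodium pump had 1 higher and 1 lower member of 17 (11.8% called), SLC6A6 and the glycine transporter SLC6A9 (-0.71), and of 26 acid-base genes 2 were higher and 3 lower (19.2% called). CA5B had 7.24, 7.23, 7.20, 7.26 and 7.30 on the L-lactate arrays, against 5.37, 5.50, 5.62, 5.39 and 5.89 on the untreated arrays, with NaCl at 6.73 ± 0.095. SLC9A7, an organellar sodium-proton exchanger, was higher (0.85), and the carbonic anhydrases CA14 (-0.82) and CA2 (-0.81) and SLC9A9 (-0.66) were lower. CA2 was lower still in NaCl cells (-1.42). SLC9A7 (0.40), CA14 (-0.42) and SLC9A9 (-0.30) differed there in the same direction, by less. The deacetylase HDAC8 (0.66) was the only called member of 25 histone acetylation genes, a share of 4% beside the 3.27% of all clusters.

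**Figure D5:**
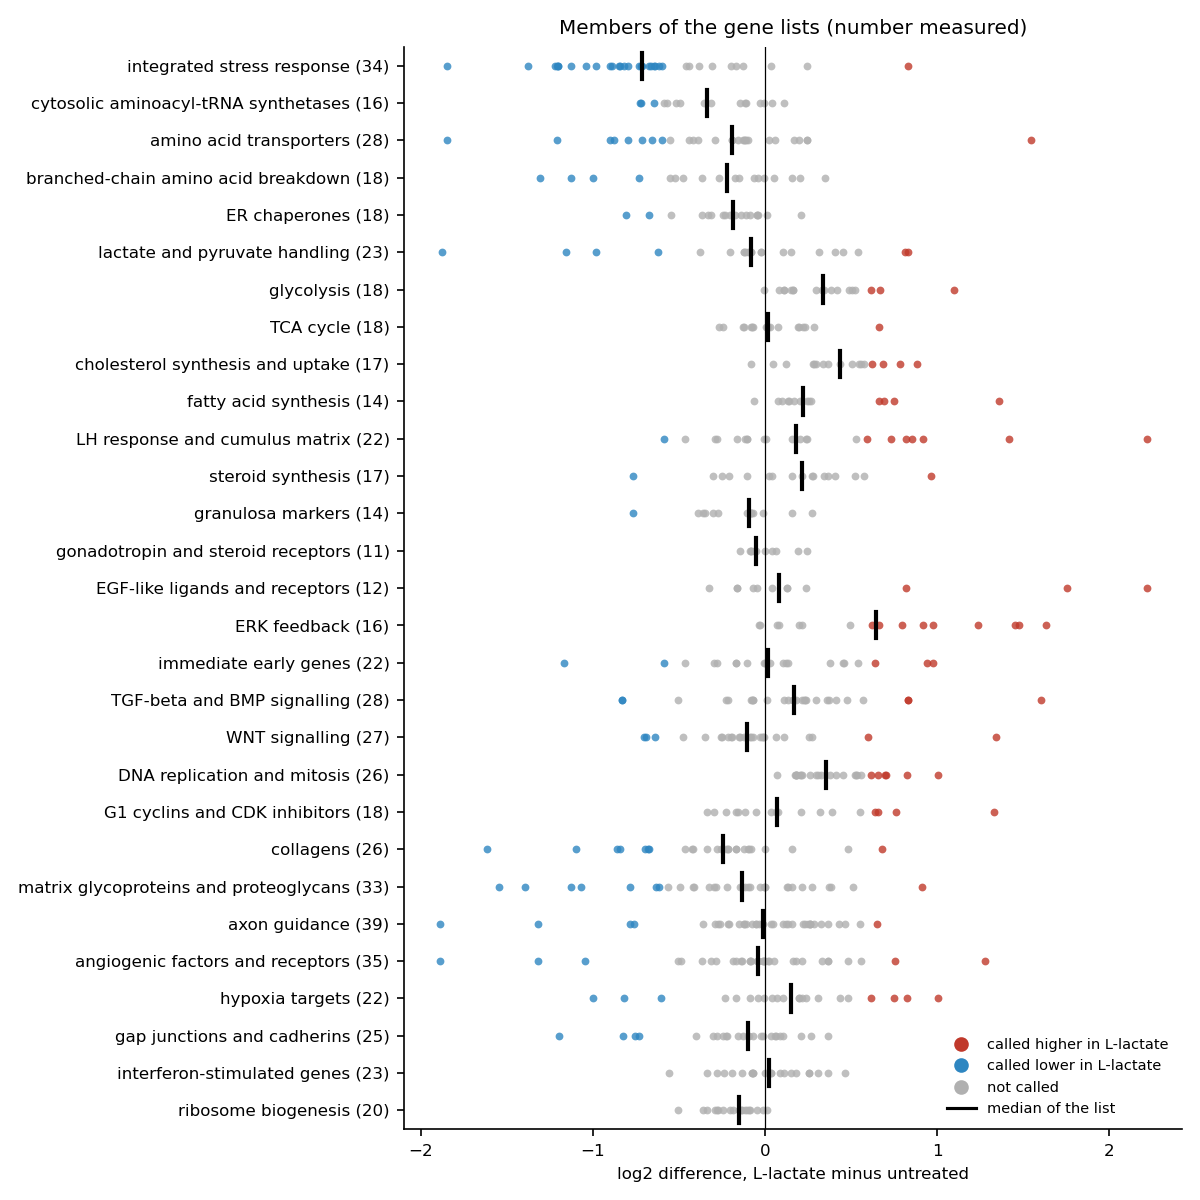
Log2 differences, L-lactate minus untreated cells, of all measured members of 29 gene lists, 1 point per gene, with called members in red (higher) or blue (lower), other members in grey and the median of the list as a black bar. The integrated stress response has the lowest median (-0.72) and ERK feedback the highest (0.64) of the lists drawn.

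Markers of other ovarian cells were called among stromal (4 of 7, 57.1%), smooth muscle (2 of 5, 40%) and theca markers (1 of 6, 16.7%), shares above the 3.27% of all clusters. No endothelial (7 measured), leukocyte (9), oocyte (7), surface epithelium (5) or erythroid (3) marker was called. The largest differences among them were 0.57 for VWF, 0.20 for CD14, -0.17 for ZP2, 0.21 for CDH1 and -0.13 for HBA. Among the endothelial markers VWF was the exception, with 1 difference above 0 and 6 below (median -0.11), and KDR stood at -0.51. VWF was just below the fold threshold and passed it without L-lactate replicate 1 or 3 or untreated replicate 3 (0.59 to 0.60). Of 6 theca markers INSL3 was lower (-0.69, with -0.64 in NaCl) and CYP17A1, the defining enzyme, differed by 0.043 at a signal near 4. The theca list averaged between 5.18 and 5.42 on the L-lactate arrays, between 5.24 and 5.43 on the NaCl arrays and between 5.36 and 5.65 on the untreated arrays. Of 5 smooth muscle markers TAGLN (0.63) and CNN1 (0.72) were called higher. TAGLN was higher still in NaCl (1.11) and lost the call without untreated replicate 1 (0.58). ACTG2 (-0.35) and MYH11 (-0.26) went the other way without passing the fold threshold, and DES stood at 0.14. The smooth muscle list averaged between 5.70 and 5.84 on the L-lactate arrays, between 5.85 and 5.96 on the NaCl arrays and between 5.50 and 5.64 on the untreated arrays. The part of such cells in the results for matrix and contractile genes was not tested. Of 13 contractile genes (23.1% called) 2 were higher and 1 lower, the myosin kinase MYLK (-0.88). Among 21 tubulins and microtubule proteins (9.52% called), TUBB2B (0.77) and TUBB4A (0.77) were higher. Among 17 RGS proteins (11.8% called), which end G protein signals, RGS7 was higher (0.61) and RGS4 lower (-0.79, with -0.56 in NaCl). RGS2, a marker gene of the study that was listed here and among the LH-responsive genes, had no cluster of its own and could not be described. RGS7 lost the call without L-lactate replicate 2 or untreated replicate 3 (0.58 and 0.56).

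Called genes were also looked up beside each other in the RefSeq order of protein-coding genes. Of 13615 neighbouring pairs with both genes measured, both were called in 35, with 14 pairs higher, 7 lower and 14 in opposite directions. Over all genes measured, 715 of 18010 were called. The number of pairs that this share alone would give was not computed, so the pairs are named for their position only. EREG and AREG, ADAMTS5 and ADAMTS1, and NT5E and TBX18 were pairs with both genes higher. ASPN and ECM2, FMOD and PRELP, and COL6A1 and COL6A2 were pairs with both lower, and VNN1 and VNN2, and PDGFRA and KIT were opposite. Called clusters were rare among the dimmest. With the clusters sorted by mean signal and cut at the quartiles, 0.403% were called below the first quartile, 2.23% between the first quartile and the median, 5.72% between the median and the last quartile and 4.72% above it. Of the 875 called clusters, 144 (98 higher, 46 lower) carry no symbol or several and name no gene here.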

How the data were processed

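RNA from 15 cultures (5 L-lactate, 5 NaCl, 5 untreated) was hybridised to Affymetrix bovine gene arrays, each culture on its own array. Log2 signals were deposited for 26773 transcript clusters, and the authors made them with Affymetrix Expression Console 1.4.1.46 and RMA (background correction, quantile normalization and summarising of probes), per the submitters' processing notes. The genome build of the array is not given in the sources used here. No value column belonged to another sample. Detection calls and scan dates were not analysed here. The number of arrays limits the precision, and probes of different genes bind differently, so levels were compared within a gene only.

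Groups came from the sample labels. The labels name a NucleoSpin kit for RNA extraction, while the study's methods name an RNeasy kit. Genes were named from the platform annotation, in which 18457 clusters carry 1 symbol (18010 distinct genes), 688 several and 7628 none. Gene IDs were unique for 18166 single-symbol clusters, and 17996 of these matched the RefSeq table (ARS-UCD2.0), which was used for names and neighbouring genes only, and promoter sequences were not used here. Where a gene had several clusters (401 genes), the one with the highest mean signal stood for it.

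All 15 arrays were fitted in limma 3.58.1 (R 4.3.3, lmFit and eBayes) with 1 coefficient per group, and p-values were adjusted by Benjamini-Hochberg over all clusters. Calls required a fold change over 1.5 in either direction and an adjusted p under 0.05. The study's methods used an ANOVA with the same fold threshold. For genes whose groups overlapped, the exact two-sided permutation test over 252 labellings of 5 against 5 arrays was used where given, whose smallest p is 0.00794. Figures and summaries used Python 3.11.15 and pandas 2.3.3.

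On simulated data of 26773 clusters for the comparison of L-lactate with untreated cells, the procedure called 1, 47, 50 and 50 of 50 clusters changed 1.3-, 1.7-, 2- and 3-fold, and 0 unchanged ones. The noise was normal and independent between clusters. All changed clusters had a mean signal above the median, so changes in dimmer ones were not tested. A 1.3-fold change lies below the fold threshold of 1.5.

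The gene lists, markers and named genes were chosen with earlier results of these data known. Named genes are the 20 with the largest increase and the 20 with the largest decrease among called genes whose groups do not overlap, up to 6 called members of each of 60 lists with the largest difference (the member with the largest difference where none was called), all GC markers, and 52 genes added after their values were seen. The lists held 1207 genes, of which 1124 were measured, 98 higher and 102 lower. Members without a cluster of their own, STAR, LDHB and RGS2 among them, could not be described.

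Replicates carry the numbers 1 to 5 in each group. Same-numbered L-lactate and untreated arrays did not deviate together (r between -0.021 and 0.0331 over clusters, 0 of 5 above 0.1), so no pairing was used. Alternatives were the 2 groups alone, an unmoderated ANOVA, the replicate number as a block, each array left out, a filter on dim clusters, other normalizations, an intensity trend, array weights, other thresholds, identical clusters counted once and the mean of a gene's clusters.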

Additional observations from a re-analysis of the deposited data

Results flagged for a closer look

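In 32 of 532 groups of 5 arrays checked, over the genes described above and the L-lactate and untreated groups, a single array stood apart from the other 4 on the log2 scale. Chance flags about 1 in 20 such groups. L-lactate replicate 5 was the array concerned in 9 of the 32, in each case as the lowest. Its signal was 4.84 for STC2, 8.47 for FMOD, 8.54 for FBLN1, 6.69 for PTGFR, 8.52 for GFRA2, 9.15 for PSAT1, 10.44 for ATF4, 8.79 for PTGS2 and 6.78 for NPTX2. STC2, PSAT1 and ATF4 belong to the integrated stress response, and only PSAT1 lost its call without this array.

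The other L-lactate arrays concerned were replicate 1, highest for APOD at 7.76 against 6.50 to 6.82 in the others and lowest for ADAMTS1 at 6.77, replicate 2, lowest for NR4A2 at 4.83, and replicate 4, lowest for GPR85 at 4.06. L-lactate replicate 3 was highest for VIPR2 at 3.93 and FST at 10.99 and lowest for CCND1 at 6.50.

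Among the untreated arrays, replicate 1 was lowest for LOC100139670 at 7.79, SLC6A9 at 9.25, SLC1A4 at 9.15 and DDR2 at 8.44, and highest for CYP19A1 at 8.66. Untreated replicate 3 was lowest for EREG at 5.29, IL18 at 7.57 and SGIP1 at 2.68, and highest for S1PR3 at 4.86 and SLC16A1 at 8.29. Untreated replicate 5 was lowest for FST at 10.97 and LOX at 4.04, and highest for INSIG1 at 9.23 and IER3 at 8.23. Untreated replicate 2 was lowest for PFKFB4 at 6.67 and untreated replicate 4 for SST at 6.72. In EREG, SST, CYP19A1 and IL18 the gap between the groups was wider than the distance of that array from its group. LOX was the called gene among them whose groups overlapped.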

How the results depend on the processing

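The counts of 518 higher and 357 lower clusters depended most on the thresholds. With a fold change above 2 they were 117 and 84, and with an adjusted p under 0.05 alone 3574 and 3680. Leaving out each array in turn gave 472 to 537 higher and 348 to 371 lower clusters, with the lowest count of higher clusters without L-lactate replicate 5. Between 803 and 846 of the 875 called clusters remained. The replicate block gave 515 and 358. The replicate numbers share no more than a number (own number best in 0 of 5), and the block changed no call of a described gene. Centring each array on its median gave 565 and 326, array weights 483 and 357, and the unmoderated ANOVA 508 and 353. Of 232 described genes that were called, 14 lost the call without some array and 10 under another alternative, each with a main difference close to the fold threshold, and 0 reversed. They were ADAMTS1, ADAMTS5, AKAP5, ARRDC3, BUB1B, FBN1, IRS1, LPAR3, NR4A2, PSAT1, RGS7, SERPINA1, TAGLN and WNT5A. VWF and MKI67 gained a call. With the mean of a gene's clusters in place of the brightest one, the medians of the 60 lists moved by less than 0.1. The search of promoters for motifs was not run. Depth is not given by array signals, and called clusters were fewest where signals were dimmest.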

Other observations

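Some called genes lay outside the gene lists and are described here because of their values. Among adhesion and surface proteins, the fibronectin receptor subunit ITGA5 had 9.24, 9.22, 9.30, 9.25 and 9.43 on the L-lactate arrays, against 8.12, 8.14, 8.05, 8.06 and 8.17 on the untreated arrays, and NaCl cells took a middle position (0.64 relative to untreated). ITGB8, which takes part in the activation of TGF-beta, was higher by 1.05 and endoglin (ENG), a co-receptor for BMP9, by 1.25 (adjusted p = 1.92e-09). CD83, an immune surface protein, had 8.45, 8.70, 8.58, 8.51 and 8.58 on the L-lactate arrays, against 7.17, 7.11, 7.08, 7.22 and 7.25 on the untreated arrays, a 2.63-fold increase with NaCl at 0.10. KITLG, the kit ligand through which GC act on oocyte and theca cells, was higher by 0.80 (adjusted p = 3.9e-08), whereas its receptor KIT was at -0.69 (adjusted p = 2.67e-08). CITED4, a co-regulator of transcription, had 8.57, 8.58, 8.59, 8.68 and 8.61 on the L-lactate arrays, against 7.06, 7.07, 7.11, 7.06 and 7.16 on the untreated arrays and was 2.86-fold higher, with NaCl at 0.66. RGN, the calcium-binding protein regucalcin, was 2.90-fold higher with NaCl at 0.012. The cell cycle protein CKS2 (1.31), the water channel AQP11 (1.60) and the synaptic genes SYN3 (1.48) and SGIP1 (1.53) were higher as well. The YAP target ANKRD1 (1.48), the hyaluronan-degrading CEMIP (1.42) and the sialic acid hydroxylase CMAH (1.48) were higher in L-lactate and higher in NaCl (1.01, 1.16 and 1.23).

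Among the lower genes, the collagen receptor DDR2 had 7.50, 7.36, 7.38, 7.29 and 7.24 on the L-lactate arrays, against 8.44, 8.60, 8.56, 8.60 and 8.57 on the untreated arrays, and was 2.30-fold lower with NaCl at -0.16. The collagen cross-linking LOXL2 (-1.05), the stress genes GADD45A (-0.93) and IFRD1 (-1.07), the activin subunit INHBE (-1.01), the nitric oxide synthase NOS2 (-0.86) and the glutamate receptor partner CNIH3 (-1.26) were lower. NOS2 and CNIH3 were at -0.092 and -0.14 in NaCl relative to untreated cells. GUCY1B1, a subunit of the nitric oxide receptor, had 6.56, 6.63, 6.61, 6.56 and 6.47 on the L-lactate arrays, against 7.75, 7.85, 7.64, 7.43 and 7.60 on the untreated arrays, and NaCl cells were at the same level (6.50 ± 0.11, L-lactate minus NaCl 0.067, adjusted p = 0.6). NPTX2 (-1.08) and the protease inhibitor TFPI2 (-0.99, adjusted p = 0.0115) were lower in L-lactate and in NaCl cells (-1.35 and -1.22). PTGS2, the prostaglandin synthase of ovulation, was at 0.21 and below the fold threshold.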
